A study of Mus musculus with 3 samples.

Results

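Foxp3-positive, non-cycling Cd4 class cells were 496 of the 5564 cells that the deposited table holds from B16F10 melanoma, a transplantable mouse tumor line. A cell was taken when the authors' annotation gave it a Cd4 identity and the Cd4 class, when it held at least 1 UMI of Foxp3 (a unique molecular identifier, standing for 1 captured RNA molecule), and when its UMIs of the cell cycle genes Mki67, Top2a, Cdk1 and Birc5 summed to less than 2. They were set against the 1664 non-cycling Cd4 class cells with 0 UMIs of Foxp3, here called Foxp3-negative. Both classes together are the 2160 non-cycling cells of a Cd4 class of 2477. The members were therefore selected on measured values of these same cells, and every comparison of the classes is a description, with no test.

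Regulatory T cells are CD4 T cells that restrain other lymphocytes, and the transcription factor Foxp3 holds their program in place. They express the high-affinity interleukin-2 receptor chain CD25, compete for interleukin-2, and carry inhibitory and costimulatory receptors such as CTLA-4, GITR, OX40 and 4-1BB. In tumors they are common, are often strongly activated, and are studied because they limit the immune response to the tumor.

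All cells came from 1 pool and 1 droplet library that read the 5′ ends of transcripts. CD45.1 CD4 T cells or CD45.2 CD8 T cells, told apart by these congenic markers, had been transferred by vein 1 day after the tumor cells, and tumors of 10 mice were pooled at resection on day 11. CD4 and CD4 CD8 double-positive cells with CD45.1, and CD8 and double-positive cells with CD45.2, were sorted, given a hashtag each and mixed, and about 6200 cells were loaded. The strain and genotype of the hosts and donors are not given in the sources used here, and the sample is labelled untreated. Both classes share this handling, the tumor and the pool. The annotation also gives each cell a number from 1 to 4, which nothing in the labels ties to a sorted population, so the numbers are used as parts of 1 pool and not as replicates. The 496 cells were 238, 133, 39 and 86 cells of numbers 1 to 4.

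The Foxp3-positive cells held 1929152 UMIs, with a median of 3219 per cell and 1475.5 genes per cell, and the Foxp3-negative cells held 6145227 UMIs, with a median of 3363.5 per cell and 1453 genes. The median share of mitochondrial UMIs was 0.724% in Foxp3-positive and 1.05% in Foxp3-negative cells. Levels are given as CPM, the UMIs of a gene per 1e+06 UMIs, both summed over all cells of a class, and folds are ratios of CPM with an exact 95% interval. To be called, a gene had to be 1.5-fold or more apart and have an interval clear of 1, and it had to hold at least 20 UMIs over both classes. All intervals cover counting error only, and in summed counts a higher level per cell and more cells with the RNA cannot be told apart unless the share of cells is given beside it.

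Foxp3-positive cells were 23.0% of the non-cycling Cd4 class (496 of 2160, exact binomial interval 21.2 to 24.8). The share was 24.6% in number 1 (21.9 to 27.4), 19.3% in number 2 (16.4 to 22.5), 22.7% in number 3 (16.6 to 29.7) and 25.9% in number 4 (21.3 to 31.0), and the interval of number 2 overlaps each of the others. At an equal depth of 2000 UMIs per cell the share was 18.4%. In the non-cycling Cd8 class, which should largely lack Foxp3, a Foxp3 UMI was found in 2.72% of 2209 cells at a deeper median of 3847 UMIs. Of the cycling Cd4 class, 18.6% (59 of 317) had a Foxp3 UMI at a median of 7245 UMIs. Non-cycling cells of Cd4 identity that the authors called Tdp, each with a UMI of both Cd4 and Cd8a, had one in 20.8% (15 of 72), and Tdp cells of Cd8 identity in 3.77% (9 of 239).

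The members held between 1 UMI of Foxp3 (134 cells) and 6 or more (40 cells), with 109, 100, 56 and 57 cells at 2, 3, 4 and 5 UMIs. The other 4 markers of regulatory T cells, which the rule did not use, went with the label. At least 3 of Il2ra, Ikzf2, Tnfrsf9 and Tnfrsf4 were found in 72.6% of Foxp3-positive cells, in 6.67% of Foxp3-negative cells (111 cells) and in 2.17% of the non-cycling Cd8 class. None of these 4 markers was found in 8 of the 496 Foxp3-positive cells, against 890 of the 1664 Foxp3-negative cells. The 111 marker-rich cells without a Foxp3 UMI remained in the Foxp3-negative class.

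Cells at the edges of the rule were compared without a test. The 134 cells with a single Foxp3 UMI had 836 CPM of Ikzf2, 330.3 CPM of Il2ra and 1212 CPM of Tnfrsf9, whereas the cells with none had 82.6, 48.0 and 108 CPM. For these 3 genes the step between 0 and 1 UMI of Foxp3 was wider than any step among the Foxp3-positive cells. Ikzf2 was 741 CPM in the 209 cells with 2 to 3 Foxp3 UMIs and 698 CPM in the 153 cells with 4 or more, with overlapping intervals. Tnfrsf9 was 1103 and 1685 CPM, Il2ra 347 and 578 CPM, and Ctla4 524 and 658 CPM in those groups. Gzmb, the protease granzyme B, was 1419 CPM at 1 UMI, 1440.5 CPM at 2 to 3 and 3298 CPM at 4 or more. Cells with 4 or more Foxp3 UMIs were deeper, with a median of 3862 UMIs against 2842 in cells with 1, and the part of depth in these values was not tested.

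**Figure D1:**
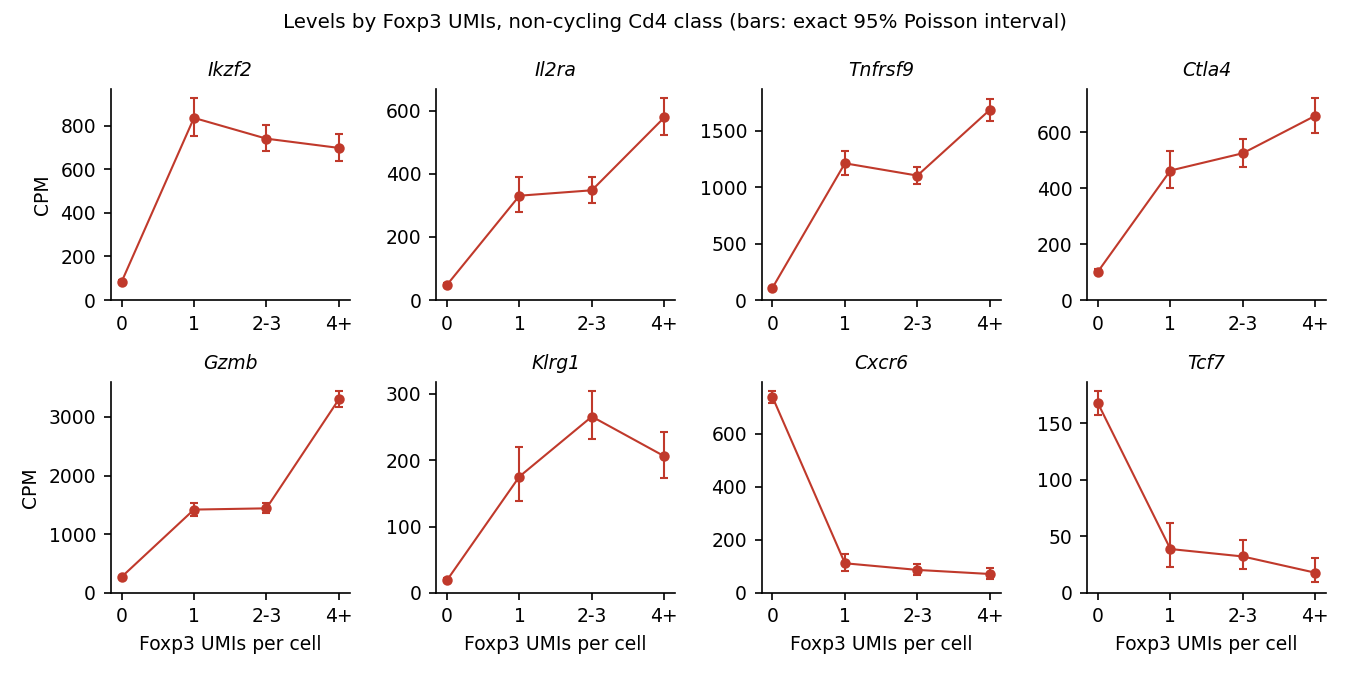
Summed level (CPM) of 8 genes against Foxp3 UMIs per cell (0, 1, 2 to 3, 4 or more) in non-cycling Cd4 class cells; points are levels and bars exact 95% Poisson intervals. Ikzf2 has 82.6 and 836 CPM at 0 and 1 UMI and changes little after that, while Gzmb reaches 3298 CPM in the last group.

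At the other edge, Foxp3-positive cells with 1 cycling gene UMI (96 cells, kept) had 607 CPM of Ikzf2, 1189 CPM of Tnfrsf9 and 1857 CPM of Gzmb. Foxp3-positive Cd4 class cells with 2 such UMIs (27 cells, left out) had 614, 909 and 1812 CPM. Both groups held more of these RNAs than Foxp3-negative cells, at 82.6, 108 and 269.7 CPM.

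Of 10008 genes measured in both classes, 950 were called higher in Foxp3-positive cells (9.49%) and 660 lower (6.59%), and the median log2 ratio over all of them was -0.00034. Among the 12 highest ratios were those of the tumor necrosis factor (TNF) receptor family member Tnfrsf9, Itgae, Klrg1, Helios (Ikzf2), Cd81, Il2ra of the interleukin-2 receptor and granzyme B (Gzmb). Among the lowest were those of Cxcr6, Cd40lg and Tcf7, genes of helper and memory-like T cells. All of these kept their direction within each of the 4 numbers.

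**Figure D2:**
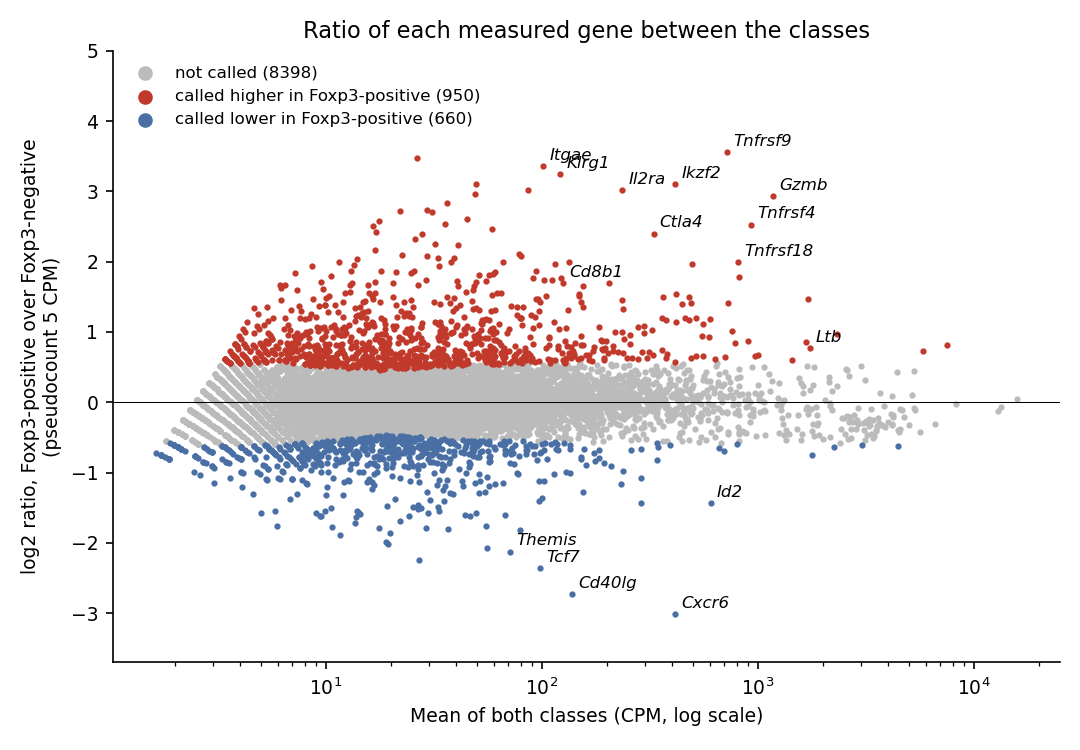
Log2 ratio of Foxp3-positive over Foxp3-negative cells (pseudocount 5 CPM) against mean level (CPM, log scale) for the 10008 measured genes; red points are the 950 called higher and blue points the 660 called lower. Tnfrsf9, at 3.56, and Cxcr6, at -3.02, stand at the ends among abundant genes.

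Surface receptors known from regulatory T cells were higher nearly throughout. Of 25 measured members of that list, 22 were called higher and 1 lower, with a median log2 ratio of 1.37. Of all measured genes, 9.49% were called higher and 6.59% lower. Like all gene lists here, this one was chosen with earlier results of these data known. It also holds the markers Il2ra, Tnfrsf9 and Tnfrsf4, so its direction is no independent evidence. Tnfrsf9, the costimulatory receptor 4-1BB, was 1341, 1285, 1542 and 1283 CPM in Foxp3-positive cells of numbers 1 to 4, against 117, 84.4, 105 and 130.5 CPM in Foxp3-negative cells. The summed levels of 1332 and 108 CPM differed 12.3-fold (11.3 to 13.4). Il2ra, which encodes CD25, was 397, 483, 361 and 450.5 CPM in Foxp3-positive cells and 51.9, 39.8, 46.8 and 53.1 CPM in Foxp3-negative cells, 8.84-fold higher over all cells (7.73 to 10.1). Tnfrsf4, the receptor OX40, was 5.86-fold higher (1586 against 271 CPM) and was found in 89.3% of Foxp3-positive and 34.7% of Foxp3-negative cells. Tnfrsf18, which encodes GITR, was 4.02-fold higher (1294 against 322 CPM). Among inhibitory and costimulatory receptors, Ctla4 was 5.49-fold (4.97 to 6.07), Tigit 2.56-fold and Icos 2.22-fold higher.

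**Figure D3:**
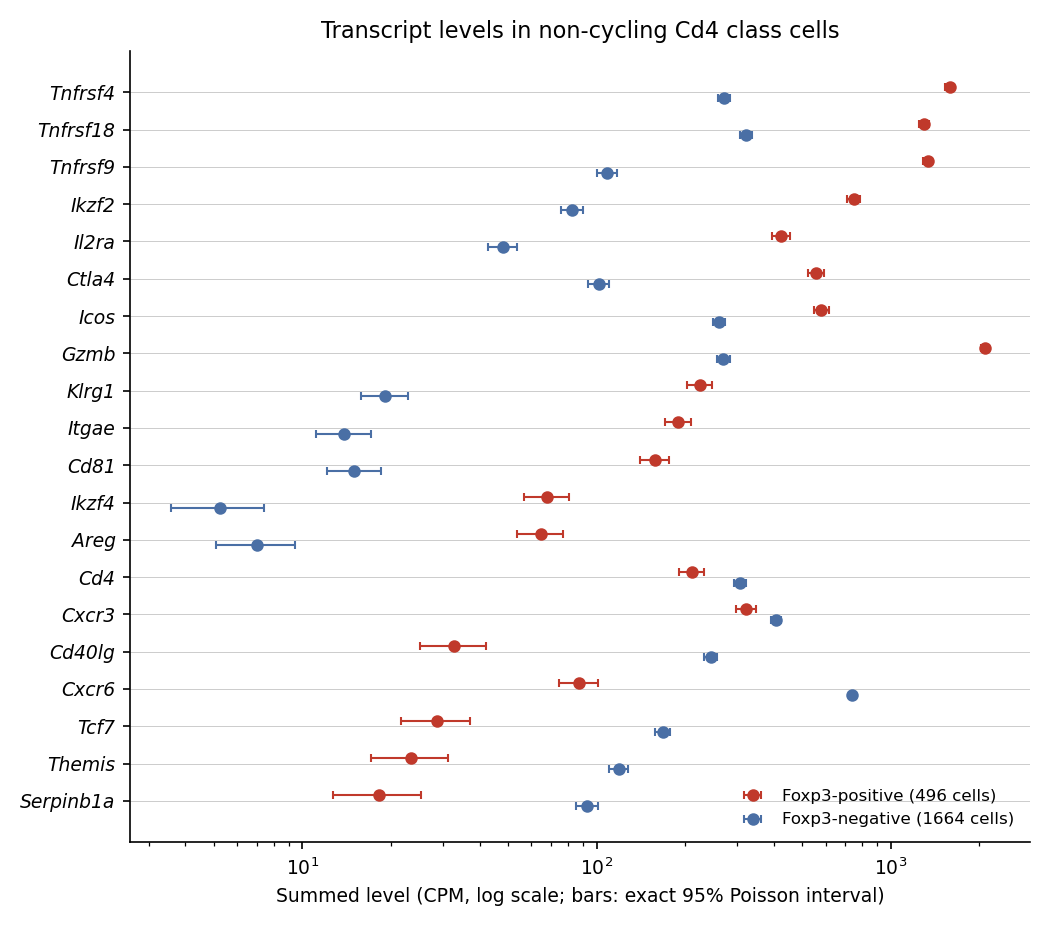
Summed levels (CPM, log scale) of 20 genes in the 496 Foxp3-positive cells (red) and the 1664 Foxp3-negative cells (blue), with exact 95% Poisson intervals as bars. Red points lie right of blue ones from Tnfrsf4 to Areg, and left of them from Cd4 to Serpinb1a.

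Several receptors tied to tissue residence and to effector regulatory T cells were scarce in the Foxp3-negative cells. Itgae, the CD103 integrin chain that binds epithelial cadherin, was 167, 214, 311 and 170.1 CPM in Foxp3-positive cells of numbers 1 to 4, against 14.1, 9.68, 11.1 and 23.2 CPM in Foxp3-negative cells. It was 13.6-fold higher in all (10.7 to 17.5) and was found in 39.7% against 4.09% of cells. Klrg1, an inhibitory lectin-like receptor of differentiated lymphocytes, was 11.7-fold higher (9.55 to 14.5) and found in 26.4% against 3.19% of cells. Cd81, a tetraspanin, was 10.5-fold higher, and Il1rl1, the interleukin-33 receptor ST2, was 9.09-fold higher. Among the 12 highest ratios were also Rln3, the hormone relaxin 3, at 12.4-fold and in 12.1% against 1.62% of cells, C1qtnf6 at 12.5-fold, and the endocytic adaptor gene Snx9 at 8.88-fold.

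Some receptors that are usual in lists of tumor regulatory T cells differed less. Ccr8, a chemokine receptor, was 65.5 against 32.8 CPM, a 2.00-fold difference (1.59 to 2.51), but it was found in 10.9% and 9.31% of cells, and at equal depth in 5.36% and 5.71%. In Foxp3-positive cells, 11 cells held at least 50% of its UMIs. Entpd1, the ectonucleotidase CD39, was 1.99-fold higher, and Lag3 1.56-fold. Nrp1, neuropilin-1, differed 1.41-fold (1.09 to 1.81) and was not called. Pdcd1, which encodes PD-1, was 87.4 against 109.5 CPM, below the size that was called, and its direction differed between numbers. The list of tumor regulatory T cell genes as a whole had 17 of 19 measured members called higher and 1 lower, with a median log2 ratio of 1.42. It shares members with the surface receptor list, Tnfrsf9, Tnfrsf18, Icos and Il1rl1 among them, so the 2 counts are not separate results. The shares over all measured genes were 9.49% and 6.59%.

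Promoter sequences of RefSeq (GRCm38.p6) held 9 of 14 marker genes looked up, with 11 windows of 300 bases that run from 250 bases before a start site to 50 after it. They were searched on both strands for AP-1 (TGANTCA), STAT (TTCNNNGAA), NF-kappaB (GGGNNTTTCC) and forkhead (TGTTTAC) letters, factors that work downstream of T cell receptor, interleukin-2 and TNF receptor signals or that include Foxp3 itself. The 4 windows with a match are printed here, with matches in capitals and positions counted from the start site to the first base of the match.
Foxp3, second listed start (chrX:7580233-7580532, plus strand): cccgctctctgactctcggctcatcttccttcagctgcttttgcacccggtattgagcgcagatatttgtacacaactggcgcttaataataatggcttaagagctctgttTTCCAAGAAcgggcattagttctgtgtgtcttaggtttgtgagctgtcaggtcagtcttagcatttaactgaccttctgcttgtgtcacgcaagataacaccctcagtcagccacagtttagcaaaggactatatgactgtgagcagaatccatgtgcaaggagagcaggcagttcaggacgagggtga
Tnfrsf9, second listed start (chr4:150927749-150928048, plus strand): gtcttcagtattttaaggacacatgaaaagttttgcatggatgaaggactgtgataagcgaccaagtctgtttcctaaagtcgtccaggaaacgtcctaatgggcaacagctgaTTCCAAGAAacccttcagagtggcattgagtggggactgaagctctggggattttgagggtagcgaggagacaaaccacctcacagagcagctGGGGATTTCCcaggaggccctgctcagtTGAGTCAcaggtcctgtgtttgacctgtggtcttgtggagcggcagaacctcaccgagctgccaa
Tnfrsf18 (chr4:156026072-156026371, plus strand): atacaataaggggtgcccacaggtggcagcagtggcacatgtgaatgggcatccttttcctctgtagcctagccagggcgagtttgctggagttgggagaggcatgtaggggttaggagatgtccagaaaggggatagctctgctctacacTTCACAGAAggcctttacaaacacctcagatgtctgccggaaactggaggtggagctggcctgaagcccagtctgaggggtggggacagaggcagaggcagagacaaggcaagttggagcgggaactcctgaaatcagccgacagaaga
Gzmb (chr14:56262285-56262584, minus strand): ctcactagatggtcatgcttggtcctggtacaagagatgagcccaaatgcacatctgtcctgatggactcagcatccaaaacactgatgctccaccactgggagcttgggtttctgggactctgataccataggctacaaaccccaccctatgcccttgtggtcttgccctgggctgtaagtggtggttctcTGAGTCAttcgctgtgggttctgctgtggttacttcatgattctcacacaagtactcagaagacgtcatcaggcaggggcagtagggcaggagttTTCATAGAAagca
The Tnfrsf9 window held STAT letters at -136, NF-kappaB letters at -43 and AP-1 letters at -15, none of them overlapping. Gzmb held AP-1 letters at -58 and STAT letters at 38, Foxp3 held STAT letters at -139 and Tnfrsf18 at -99. Of all 32851 promoter windows, AP-1 letters were in 7.81%, STAT in 8.30%, NF-kappaB in 1.63% and forkhead letters in 3.65%, and the last were in 0 of the 11 windows. A match is a stretch of letters and not a measured binding site.

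Transcription factors changed in both directions, with 8 of 25 measured members called higher, 5 lower and a median log2 ratio of 0.24. Among all measured genes 9.49% were higher and 6.59% lower. Ikzf2, the Ikaros-family factor Helios, was 753, 755, 722 and 731 CPM in Foxp3-positive cells of numbers 1 to 4, against 92.0, 73.1, 71.2 and 77.4 CPM in Foxp3-negative cells. These levels varied little between numbers and differed 9.05-fold in all (8.17 to 10.0), with a UMI in 83.3% and 14.0% of cells. Ikzf4, the related factor Eos, was 12.9-fold higher (8.74 to 19.7). Gata3 was 1.63-fold higher, and Batf differed 1.44-fold and was not called. On the lower side, Id2 was 325 against 887 CPM (2.73-fold lower), the chromatin organiser Satb1 was 3.35-fold lower, and Tbx21, which encodes T-bet, was 2.37-fold lower. Tcf7, the memory and stemness factor TCF-1, was 28.6 against 168 CPM, 5.85-fold lower (4.46 to 7.83), in 7.86% and 36.4% of cells.

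Of 16 measured members of a list of mediators of suppression, 12 were called higher and 0 lower, with a median log2 ratio of 0.99. The 12 include Cish, Socs1 and Socs2, which inhibit cytokine signalling inside the cell and are not themselves mediators of suppression. They are counted again among the higher members of the interleukin-2 list below. The shares over all measured genes were 9.49% higher and 6.59% lower. Gzmb was 1955, 2350, 2087 and 2109 CPM in Foxp3-positive cells of numbers 1 to 4, against 276, 227, 292 and 325 CPM in Foxp3-negative cells, 7.74-fold higher in all (7.31 to 8.20). A Gzmb UMI was found in 65.7% against 22.1% of cells, and 47 Foxp3-positive cells held at least 50% of the UMIs of their class. Areg, the tissue-repair factor amphiregulin, was 9.19-fold higher and found in 13.5% against 1.32% of cells. Ebi3, a chain of interleukin-35 and interleukin-27, was 3.27-fold higher in all, but not within number 3. Il10 was scarce, with 15 UMIs in Foxp3-positive and 5 in Foxp3-negative cells, a ratio of 9.56 (3.30 to 33.6).

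Signalling lists moved upward in part, set beside 9.49% higher and 6.59% lower over all measured genes. The NF-kappaB list, which TNF receptors feed into, had 10 of 18 members higher and 1 lower, with a median of 0.65. Its inhibitor and target Nfkbia was 2.67-fold higher and the ubiquitin ligase Birc2 2.50-fold, while Map3k14, the kinase of the non-canonical arm, was 1.57-fold lower and Rela differed little (65.5 against 71.7 CPM). The interleukin-2 list had 9 of 16 members higher and 1 lower, with a median of 0.55, including Pim1 at 2.95-fold. The survival gene Bcl2 was 3.57-fold lower (20.3 against 72.5 CPM). Genes of glycolysis and hypoxia had 8 of 16 higher and 0 lower, with a median of 0.54, such as Hif1a at 2.32-fold and the mitophagy gene Bnip3 at 3.59-fold. In lipid metabolism 3 of 13 were higher and 0 lower (median 0.28), among them Fabp5 at 3.04-fold, for which 9 cells held at least 50% of the UMIs.

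Lists of recent receptor signals did not move as one. Of 14 genes induced by the T cell receptor, 5 were higher and 2 lower (median 0.19). Nr4a1 was 5.44-fold higher but 5 cells held at least 50% of its UMIs, and Egr1 was 2.46-fold lower. Of 18 genes of proximal receptor signalling, 1 was higher and 1 lower (median -0.32). The lower one was Themis, a signalling adaptor of T cell development, at 23.4 against 119 CPM (5.07-fold lower). The type I interferon list had 1 of 14 higher and 0 lower (median 0.22), and the proliferation list, whose rule genes were left out of the calls, had 1 of 16 higher and 4 lower (median -0.27). Over all measured genes 9.49% were higher and 6.59% lower, and the proximal signalling and interferon counts lay near these shares.

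Genes of conventional helper cells were lower in Foxp3-positive cells. Over all measured genes, 6.59% were called lower and 9.49% higher. Of 13 measured helper and effector cytokine genes, 8 were called lower and 2 higher, with a median of -1.001, and of 14 genes of the tumor helper program 8 were lower and 0 higher, with a median of -0.83. That second list was drawn up from genes known to mark the Foxp3-negative cells of this library, so its direction is no independent evidence. Cxcr6, the receptor for CXCL16 on tissue T cells, was 90.0, 98.4, 56.6 and 74.6 CPM in Foxp3-positive cells of numbers 1 to 4, against 731, 769, 784 and 684 CPM in Foxp3-negative cells. Cxcr6 was 8.51-fold lower in all (7.29 to 9.99), with a UMI in 15.5% against 72.1% of cells. Cd40lg, the CD40 ligand of helper cells, was 7.47-fold lower (5.80 to 9.77), in 9.68% against 51.7% of cells. Tnfsf8, the CD30 ligand, was 5.91-fold lower, while Ltb, lymphotoxin beta, was 1.71-fold higher. Serpinb1a, a protease inhibitor, was 5.09-fold lower and the interleukin-17 receptor chain gene Il17re 7.29-fold lower. Other genes at the low end were Apol7e (7.69-fold), Evl (3.92-fold), Pde3b (4.42-fold), Bik (7.15-fold) and the residence factor gene Zfp683 (10.2-fold, on 4 UMIs in Foxp3-positive cells).

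Homing and adhesion genes split, set beside 9.49% higher and 6.59% lower over all measured genes. Of 13 measured chemokine receptors, 5 were higher and 1 lower (median 0.33), and Cxcr3, a receptor of type 1 responses, was 322.5 against 408 CPM and not called. Of 19 integrins and adhesion genes, 7 were higher and 5 lower (median 0.25), with Itgae at the top and Itga4, the alpha chain of VLA-4, 2.50-fold lower. Of 20 costimulatory TNF family genes, 9 were higher and 5 lower (median 0.32), and the 5 lower ones, Cd40lg and Tnfsf8 among them, encode ligands. Naive and central memory genes had 3 of 12 higher and 2 lower (median 0.01), and T follicular helper and exhaustion genes 5 of 13 higher and 1 lower (median 0.26). Ccr7 was counted as higher among both the chemokine receptors and the naive genes, but 1 Foxp3-positive cell held 50 of the class's 75 UMIs. It was found in 2.82% of Foxp3-positive and 3.37% of Foxp3-negative cells.

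The CD8 co-receptor genes were called higher in Foxp3-positive cells, although both classes belong to the Cd4 class, and Cd4 itself was not called. Cd4 was 210.2 against 307 CPM, a 1.46-fold difference (1.31 to 1.63), found in 51.4% against 62.8% of cells. Zbtb7b, the CD4 lineage factor ThPOK, was 54.1 against 56.5 CPM and not called. Cd8b1, the CD8 beta chain gene, was 129, 137, 573 and 301 CPM in Foxp3-positive cells of numbers 1 to 4, against 23.4, 65.1, 180.3 and 81.9 CPM in Foxp3-negative cells. It was higher in Foxp3-positive cells within each number, although Foxp3-positive cells of numbers 1 and 2 lie below Foxp3-negative cells of number 3. A Cd8b1 UMI was found in 18.8% of Foxp3-positive cells (15.4 to 22.5) and in 8.89% of Foxp3-negative cells (7.57 to 10.4), and at equal depth in 16.6% and 5.38%. Cd8a was 3.37-fold higher (2.55 to 4.47). A UMI of both Cd4 and Cd8a was seen in 0 of the 496 Foxp3-positive and 1 of the 1664 Foxp3-negative cells, but in all 93 Tdp cells of Cd4 identity. The sources used here do not say how the authors drew that class. Only 3 of the 2477 Cd4 class cells held UMIs of both, so the Cd4 and Cd8a levels of both classes may be partly set by that division.

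The 93 Foxp3-positive cells with a Cd8b1 UMI had a median of 3971 UMIs, against 3009 in the 403 without. They held lower levels of Ikzf2 (516 against 819 CPM), Il2ra (269 against 472 CPM), Tnfrsf9 (1077 against 1411 CPM) and Cd4 (115 against 239.6 CPM), and more Gzmb (2438 against 1979 CPM). The Cd4 difference may be partly set by how the class was drawn, since 0 of the 496 cells held both Cd4 and Cd8a. A second T cell receptor beta V gene with at least 2 UMIs, a sign that 2 cells share a droplet, was seen in 19.4% of the cells with Cd8b1 (18 of 93), against 6.70% of those without. Only cells with at least 4 UMIs of beta V genes can show this sign, 238 Foxp3-positive and 996 Foxp3-negative cells. Of those, 18.9% and 13.9% showed it. Without all cells that showed it, a Cd8b1 UMI remained in 16.6% of Foxp3-positive and 8.58% of Foxp3-negative cells. Shared droplets among cells with fewer beta V UMIs stay in these shares. The part of shared droplets in the remaining difference was not tested. The list of CD8 lineage and cytotoxic genes had 5 of 16 higher and 6 lower (median -0.22), with Gzmk, granzyme K, 3.57-fold lower. The CD4 lineage list had 3 of 10 higher and 3 lower (median -0.06), and all measured genes 9.49% higher and 6.59% lower.

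**Figure D4:**
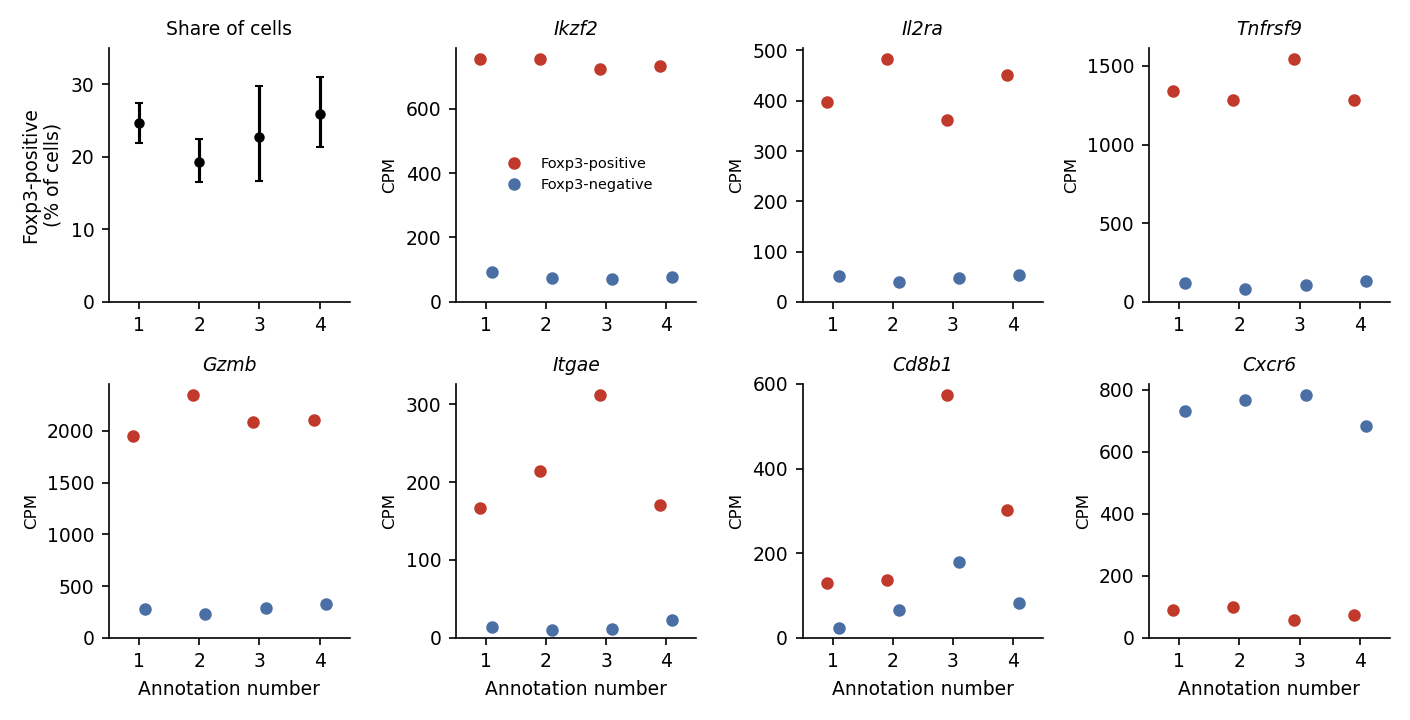
Share of Foxp3-positive cells (first panel, percent with exact 95% binomial intervals) and summed levels (CPM) of 7 genes in Foxp3-positive (red, left) and Foxp3-negative cells (blue, right) of annotation numbers 1 to 4. Red points lie above blue ones within each number except for Cxcr6, and Cd8b1 varies most between numbers, with 129 to 573 CPM in Foxp3-positive cells.

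The share of Foxp3-positive cells in which a subset gene was found ranged widely between genes. At 2000 UMIs per cell, which kept 429 Foxp3-positive and 1506 Foxp3-negative cells, Tnfrsf18 was found in 84.1% of Foxp3-positive cells, Ikzf2 in 68.1%, Tnfrsf9 in 66.2% and Gzmb in 62.2%. Itgae was found in 28.2%, Klrg1 in 21.2% and Il1rl1 in 8.62%. The same genes were found in 39.0%, 9.43%, 7.84%, 16.9%, 2.52%, 1.59% and 0.73% of Foxp3-negative cells. At this depth sampling alone keeps the share of a low gene under 100%, so these shares do not by themselves show that cells differ.

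**Figure D5:**
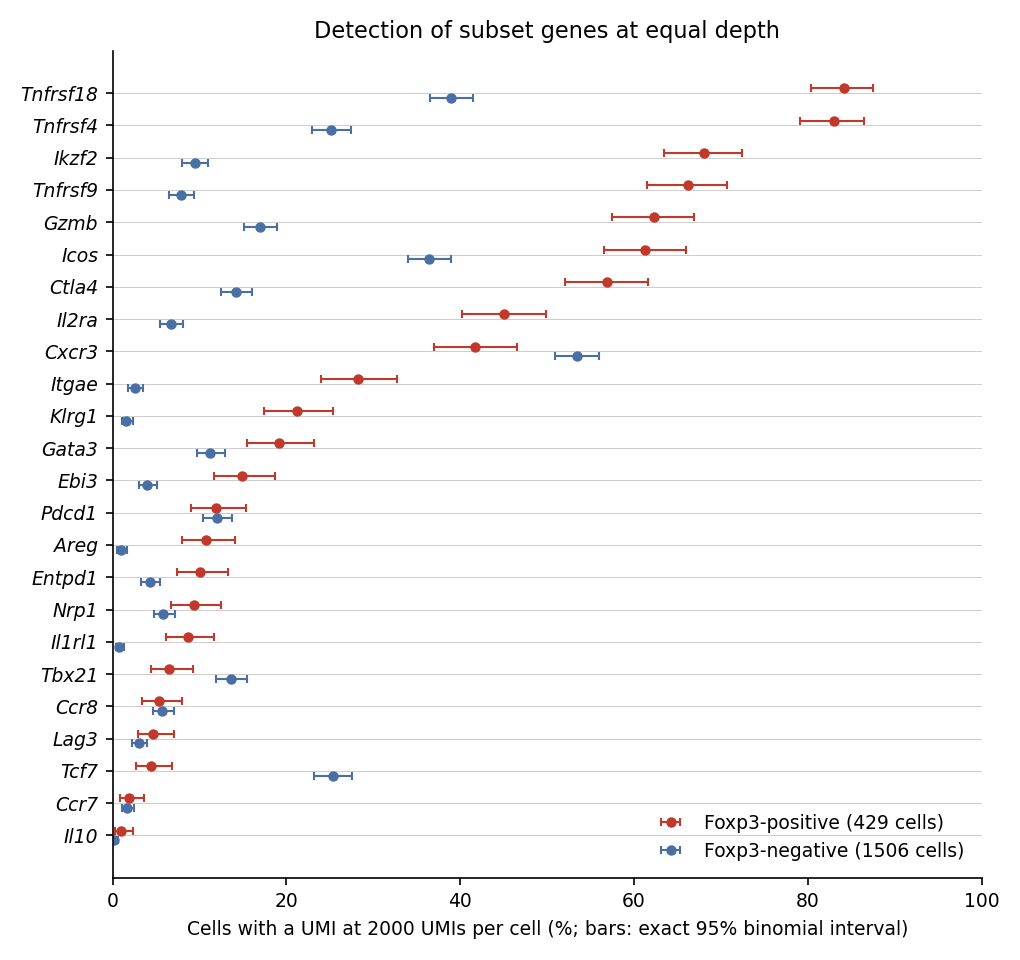
Share of cells (percent) with a UMI of 24 subset genes after thinning each cell to 2000 UMIs, in 429 Foxp3-positive (red) and 1506 Foxp3-negative cells (blue), with exact 95% binomial intervals. Tnfrsf18 heads the list at 84.1%, and Cxcr3, Tbx21 and Tcf7 lie lower in Foxp3-positive cells.

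Foxp3-positive cells with and without a gene's UMI were compared at that same depth. Cells with Tnfrsf9 (284 of 429) held Gzmb in 71.1%, against 44.8% of those without, Il2ra in 50.7% against 33.8%, and Tnfrsf4 in 90.1% against 69.0%. Ccr8 was found in 7.75% of them against 0.69%, and Tcf7 in 2.11% against 8.97%. Cells with Ikzf2 held Tnfrsf18 in 90.1% against 71.5%, but Gzmb in 63.0% against 60.6%. Cells with Gzmb held Nrp1 in 5.62% (3.18 to 9.10) against 15.4% (10.2 to 21.9). Cells with Klrg1 held Il2ra in 58.2% against 41.4% and Il1rl1 in 17.6% against 6.21%. Cells with Cxcr3 held Tnfrsf4 in 76.5% (69.6 to 82.5) against 87.6% (82.9 to 91.4). Without thinning, these differences kept their direction, with Gzmb in 73.8% of cells with Tnfrsf9 against 43.1%, Nrp1 in 11.3% of cells with Gzmb against 24.1%, and Tnfrsf4 in 85.8% of cells with Cxcr3 against 93.7%. A cell without a UMI at this depth may still express the gene. The pairs named are a few of those compared, and cells of 1 pool are not replicates. Some other pairs differed little, such as Itgae with Ikzf2 (65.3% against 69.2%) and with Il2ra (44.6% against 45.1%) after thinning.

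The T cell receptor beta V gene could be assigned in 293 Foxp3-positive and 1132 Foxp3-negative cells. These cells used 20 and 21 V genes, and no single gene exceeded 10.2% of the Foxp3-positive cells, the share of Trbv19. Trbv15 was found in 7.85% (5.04 to 11.5) against 2.83% (1.94 to 3.97), and Trbv13-3 in 9.22% (6.16 to 13.1) against 4.15% (3.07 to 5.48). Trbv12-1 was found in 5.12% against 0.80% and Trbv12-2 in 5.46% against 0.62%, and since these are near-identical copies their split is uncertain. Foxp3-positive cells with Trbv12-1 numbered 2, 3, 6 and 4 in numbers 1 to 4, of 127, 88, 24 and 54 assigned, and those with Trbv12-2 numbered 6, 4, 2 and 4. Trbv13-2 was lower, at 7.85% against 14.3%, as was Trbv1, at 8.19% against 13.4%. Trbv23 was found in 0 of 293 cells, which allows a share of up to 1.02% by the rule of 3 counts and up to 1.25% by the exact interval, against 2.12% of Foxp3-negative cells (1.36 to 3.14). How many clones these cells came from was not analysed here.

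Antibody counts were sparse, with 508 counts in the 496 Foxp3-positive cells and 1163 in the 1664 Foxp3-negative cells, so few antibodies carry information. Of 45 antibodies with at least 10 counts over both classes, 8 had more counts per cell in Foxp3-positive cells by an interval clear of 1, and 4 when set against all antibody counts of the class. Fewer counts, by the same rule, were seen for 1 antibody per cell and for 4 as a share of all counts. The ratio was highest for CD301b, a lectin of myeloid and dendritic cells, with 14 counts in Foxp3-positive and 6 in Foxp3-negative cells, 7.83-fold more per cell (2.83 to 24.9) and 5.34-fold as a share of all counts. Of the UMIs of its gene Mgl2, 166 of 168 in Foxp3-positive cells lay in 19 cells rich in myeloid and MHC class II RNA, described below. In Foxp3-negative cells 140 of 141 lay in 37 such cells. The part of those cells in the antibody ratios was not tested. GITR had 25 counts in Foxp3-positive and 16 in Foxp3-negative cells, 5.24-fold more per cell (2.69 to 10.5) and 3.58-fold as a share of all antibody counts. CD80, a costimulatory ligand of antigen-presenting cells, had 14 and 11 counts (4.27, 1.80 to 10.4, and 2.91 as a share). PD-L1 had 14 and 16 (2.94, 1.33 to 6.42), but its ratio of 2.00 as a share has an interval that includes 1 (0.91 to 4.38). CD103, the protein of Itgae, had 6 and 6 counts, a ratio of 3.35 per cell (0.90 to 12.5), CD152, the protein of Ctla4, had 9 and 13 counts (2.32, 0.88 to 5.87), and OX-40 had 7 and 12 (1.96, 0.65 to 5.39). The last 3 intervals include 1, so a difference was not detectable at this depth. The CD4 antibody had 8 and 62 counts, 0.43 per cell (0.18 to 0.91) and 0.30 as a share, and CD45.1, the marker of the transferred CD4 cells, had 16 and 36 (1.49, 0.77 to 2.76, and 1.02 as a share).

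Foxp3-positive cells outside this class were set beside the 496. The 59 cycling Foxp3-positive Cd4 class cells, with a median of 6644 UMIs, had 553 CPM of Ikzf2, 796 CPM of Tnfrsf9 and 1144 CPM of Gzmb, against 748, 1332 and 2088 CPM in the 496 non-cycling cells. Per cell the order was the opposite, with 4.44, 6.39 and 9.19 UMIs in cycling and 2.90, 5.16 and 8.09 UMIs in non-cycling cells. In CPM, cycling cells held more Ccr8 (112 against 65.5 CPM), Cd81 (230.1 against 158 CPM) and Lag3 (69.7 against 36.9 CPM). The 69 non-cycling cells of Cd8 identity with a Foxp3 UMI had 335 CPM of Ikzf2, 156 CPM of Il2ra and 486 CPM of Tnfrsf9. Their Foxp3 level was 318 CPM, against 754 CPM in the 496 cells. They also held more myeloid and MHC class II RNA, with 2103 against 379 CPM of Lyz2 and 9939 against 2527 CPM of Cd74, and less of the T cell receptor component Cd3e, with 807 against 1236 CPM. The part of these RNAs in the lower marker levels was not tested.

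Markers of other cell types were present in both classes. At least 2 UMIs of the macrophage and monocyte, B cell and melanoma lists together were in 85.9% of Foxp3-positive and 66.4% of Foxp3-negative cells. Summed macrophage and monocyte markers were 1811 CPM in Foxp3-positive and 1580 CPM in Foxp3-negative cells, with 4 of 14 called higher and 3 lower (median 0.31) and none at 0. Dendritic cell markers were 5242 and 2324 CPM, with 9 of 10 measured called higher (median 1.44) and Siglech at 0 in Foxp3-positive cells, and Cd74 alone was 2527 and 908 CPM. At least 5 UMIs of myeloid and MHC class II genes were found in 19 Foxp3-positive and 37 Foxp3-negative cells, and 1 Foxp3-positive cell held 65 of the class's 101 UMIs of Ccl22. The 19 cells held 1369 of the 1378 UMIs of H2-Aa in their class, 124 of 124 of Cd209a and 3763 of 4857 of Cd74. The 37 cells held 1591 of 1625, 104 of 104 and 5053 of 5564 in theirs. Apart from Cd74, the summed levels of these genes thus describe a few cells and not the class. Without those cells 922 genes were called higher and 699 lower, and 810 of the 950 and 562 of the 660 were shared. NK markers were 376 and 291 CPM (2 of 4 higher, median 0.49, Klra4 and Klra7 at 0 in Foxp3-positive cells). B cell markers were 456 and 139 CPM (1 measured, higher), neutrophil markers 48.4 and 9.31 CPM (1 measured, higher, S100a8 and Cxcr2 at 0 in both classes and Ly6g at 0 in Foxp3-negative cells), melanoma markers 9.88 and 6.69 CPM (1 measured, not called, Tyr and S100b at 0 in Foxp3-positive cells) and gamma delta T cell markers 6.24 and 23.8 CPM (0 measured, Cd163l1 at 0 in Foxp3-positive cells). Dissociation stress genes had 4 of 15 higher and 2 lower (median 0.01), and all measured genes 9.49% higher and 6.59% lower. The part of macrophage, B cell, melanoma and MHC class II markers in the other differences was tested only by leaving out cells that carry them. For NK, neutrophil, gamma delta T cell and stress genes it was not tested.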

How the data were processed

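The authors deposited UMI counts, not normalized, for 14811 genes and 5564 cells (26763131 UMIs), and antibody counts, also not normalized, for 138 antibodies (4315 in all) in the same cells. The submitters' processing notes name Cell Ranger 3.1.0, Seurat 3.2.3 and mm10, without saying what each was used for. Identity, class and number of each cell were read from the authors' annotation. Their cell filters, doublet handling, hashtag assignment and class calls are not given in the sources used here. The hashtag and T cell receptor libraries were not used here.

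UMIs were added up over the cells of each class. CPM were taken over the genes that remained after 117 T cell receptor and immunoglobulin genes were set aside, which held 0.351% of UMIs in Foxp3-positive and 0.325% in Foxp3-negative cells. A pseudocount of 5 CPM entered log2 ratios, which understates the change of low genes, and none entered folds. Poisson intervals for levels, conditional binomial intervals for folds and Clopper-Pearson intervals for shares are all exact and at 95%. With 1 library there was no test and no p-value. Thinning to 2000 UMIs per cell left out 67 Foxp3-positive and 158 Foxp3-negative cells.

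The members, the 29 gene lists and the naming rule were chosen with earlier results of these data known. The rule took the 12 genes of highest and the 12 of lowest log2 ratio that reached 20 CPM and 5% of cells in the class where they were higher and 100 UMIs in all, with an interval clear of 1. It added Il2ra, Ikzf2, Tnfrsf9, Tnfrsf4, Cd4, Cd8a, Cd8b1, Zbtb7b, a set of subset genes, and from every list the top 2 and bottom 2 members. Mitochondrial, ribosomal, predicted, receptor and rule genes were not eligible. The rule covers more genes than the text names, a few results are not reported here, and Ccl22 was named after its values were seen. Work was done in Python 3.11.15 with numpy 2.4.6, scipy 1.17.1 and pandas 2.3.3. TMM scaling in edgeR 4.0.16 was tried as an alternative, as were other pseudocounts, UMI minimums and sets of cells. The ratio step was tested on simulated counts.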

Additional observations from a re-analysis of the deposited data

How the results depend on the processing

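Of 61 gene ratios, 25 list medians and 3 main values under up to 18 alternatives, 1263 values stayed within counting error of the reported ones (for counts of genes, within 1.5 times), 300 moved while keeping their direction, 7 counts fell by over 1.5 times and 15 values changed sign, with 2 further medians at 0. No paired analysis was possible because all cells come from 1 library and no test was made. Cells with at least 2 UMIs of the macrophage and monocyte, B cell and melanoma lists are called cells with markers of other cell types. Without them the counts of 950 higher and 660 lower genes became 507 and 247, with only 70 Foxp3-positive and 559 Foxp3-negative cells kept. Only 273 of the 950 and 118 of the 660 were among these 507 and 247 genes. The counts of higher and lower genes were 261 and 166 within number 3 and 407 and 325 within number 4, which hold fewer cells. Among genes with at least 100 UMIs, where fewer genes are measured, 583 were higher. TMM scaling gave 844 higher and 799 lower. The share of Foxp3-positive cells was 18.4% after thinning, 16.8% with at least 2 Foxp3 UMIs, 11.1% without the cells with markers of other cell types, 19.3% in number 2 and 25.9% in number 4.

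The median log2 ratio of macrophage and monocyte markers was -0.42 in cells with 0 cycling gene UMIs, -0.59 in number 2, -0.70 in number 4, -0.093 without the cells rich in myeloid and MHC class II UMIs, a setting chosen after seeing the data, and 0 without all cells with markers of other cell types. In that last setting the medians of integrins (-0.11), interferon genes (-0.0058), dendritic markers (-0.040) and NK markers (0) changed too. T cell receptor induced genes were -0.0021 in number 1 and -0.25 in number 3. Number 3 also gave -0.18 for interferon genes, -0.45 for dendritic and -0.93 for NK markers, and -0.24 for Ebi3. Number 4 gave -0.24 for integrins and 0.077 for CD8 lineage genes. The causes were not tested.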

Other observations

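Cd74, the invariant chain of MHC class II, a member of the dendritic list, had a UMI in 62.3% of Foxp3-positive cells (57.9 to 66.6) and in 15.6% of Foxp3-negative cells (13.9 to 17.5). In cells with 0 UMIs of H2-Aa, H2-Ab1 and H2-Eb1, the MHC class II chains themselves, it was still found in 60.3% of 423 Foxp3-positive cells (55.4 to 65.0), against 13.0% of 1542 Foxp3-negative cells (11.3 to 14.8). Its level there was 664 against 92.9 CPM, 7.15-fold higher (6.42 to 7.98). Within numbers 1 to 4 the level was 807, 419, 662 and 640.0 CPM in Foxp3-positive cells, against 120.1, 48.1, 122 and 90.5 CPM in Foxp3-negative cells. Cd74 was looked at in this way after its values were seen.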
